A study of Mus musculus with 2 samples.

Results

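The transcription factors described here are 9 genes known for setting myeloid lineage, namely Spi1, Cebpa, Cebpb, Cebpd, Maf, Gfi1, Runx1, Zeb2 and Bach1. They were chosen by name, and all non-control probes annotated to one of their RefSeq transcripts were kept, which gave 11 probes for 9 of the 20653 genes named on the array. Both groups were female mice of the strain written BABL/c in the labels, starved for a day and injected subcutaneously with 1000000 cells of 4T1, a mouse mammary carcinoma line. For 16 days the NSD group received chow with 0.4% NaCl and tap water, and the HSD group received chow with 4% NaCl and water with 1% NaCl. M-MDSCs, the monocytic myeloid-derived suppressor cells, were then taken from the tumours with a bead kit, an equal number of cells was mixed within each group, and the RNA of each mixture was hybridised with the dye Cy3 to 1 array. With 1 pooled array per diet there was no replicate of the animals, so no test was possible and every difference below compares those arrays, not the diets. Fewer cells of a type and less RNA per cell cannot be told apart in such bulk RNA.

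Myeloid cells are made stepwise from bone marrow progenitors by a small set of transcription factors that act in combination. PU.1, the product of Spi1, opens the myeloid programme together with RUNX1 and the C/EBP proteins, GFI1 turns the balance towards neutrophils, and c-MAF is known for the macrophage programme. C/EBPβ is also known for driving the output of myeloid cells in tumours and inflammation, and ZEB2 and BACH1 act mainly as repressors in mature monocytes and macrophages.

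The question put to these data was whether the lineage factors of tumour M-MDSCs stood at other levels under HSD than under NSD. Of the 9 genes, 8 differed by less than 1.23-fold between the arrays, and Maf was 4.93-fold lower on the HSD array. None was at least 1.5-fold higher and 1 was at least 1.5-fold lower, on arrays where 9.86% of 16316 genes were higher and 10.3% lower by that much. The median log2 fold change (HSD minus NSD, with each array scaled to its 75th percentile) was 0.087 over the 9 genes and 0.045 over all genes. With 2-fold as the threshold the count was also 0 higher and 1 lower, beside 2.62% and 4.17% of all genes, and counted by probes it was 0 higher and 1 lower of 11, beside 10.2% and 8.92% of all probes past 1.5-fold. The median size of the log2 fold change, without regard to direction, was 0.21 over the 9 genes and 0.28 over all genes. The 8 genes other than Maf lay between -0.097 and 0.30, and 7 of these 8 differed by less than the median gene did.

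Each of the 11 probes exceeded its background clearly on the NSD as on the HSD array (the scanner software's well-above-background call), none was flagged, and each had a single spot. The scanner software's own error was 10.0% to 10.2% of each signal, which gives an error of 0.20 to 0.21 on each log2 fold change, and 5 of the 11 log2 fold changes were smaller than that. Probes spotted several times on the arrays had a median SD between spots of 0.057 to 0.099 on the log2 scale at signals like those of these probes. The scanner error was nearly the same share of every signal, dim or bright. The SD between spots compares spots of the same array, hybridised with 1 RNA pool, so it does not cover a repeat of the labelling or hybridisation. Neither says anything of the spread between mice. The HSD array was dimmer as a whole, with a 75th percentile of 233 against 252 intensity units, so a signal that was slightly lower there could stand for a scaled difference near 0.

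**Figure D1:**
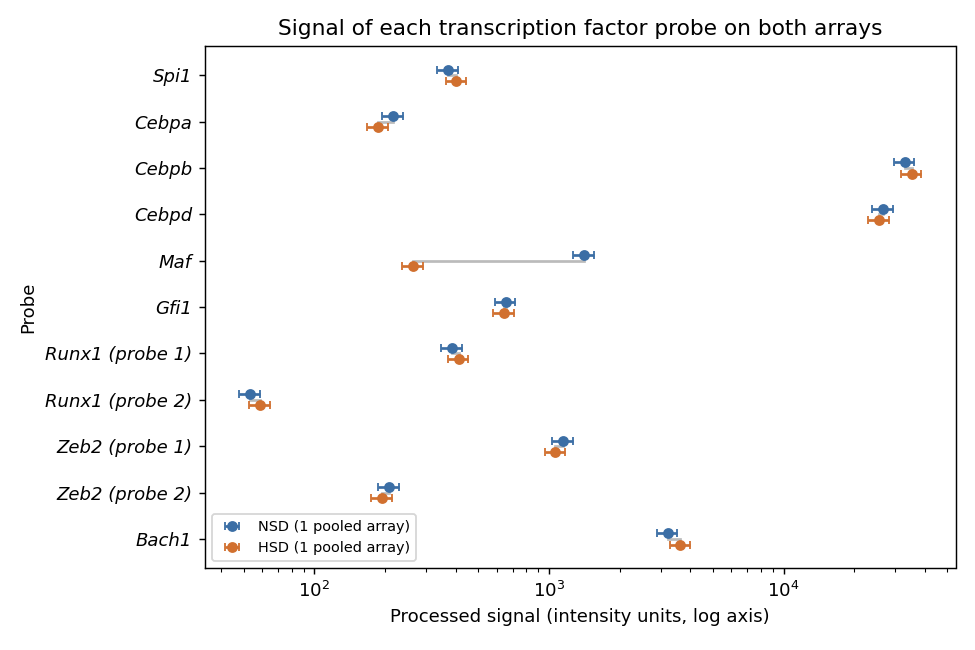
Processed signal (intensity units, log axis) of each of the 11 probes on the NSD array and the HSD array, before scaling, with bars for the scanner software's error. The paired points lie close together for every probe but that of Maf, which fell from 1409 to 264, and signals of different probes cannot be set against each other because probes differ in brightness per transcript.

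Spi1 encodes PU.1, the ETS family factor without which monocytes and granulocytes are not formed. Its probe A_52_P498086 had a signal of 372 intensity units under NSD and 403 under HSD, a log2 fold change of 0.23 with a scanner error of 0.20. It was the higher of the pair on the HSD array under all 7 other background corrections, scalings or sources of values, by 0.18 to 0.26. The closest relatives of PU.1 are SPI-B, a factor of B cells and plasmacytoid dendritic cells, and SPI-C, which is known for iron-recycling macrophages. Spib gave 1746 and 1586 units on the NSD and HSD arrays, a log2 fold change of -0.025. Spic gave 241 under NSD and 41.4 under HSD, a log2 fold change of -2.43 that was -1.53 with normexp, a model-based background correction. Among the 9 ETS relatives of Spi1, Ets1 and Ets2 were at least 1.5-fold higher on the HSD array, with signals of 1328 and 1903 for Ets1 and of 1294 and 2759 for Ets2, and Spic alone was lower. Ets1 had a log2 fold change of 0.63, which was 0.55 under cyclic loess, and it was not counted as higher there or under quantile normalization. A dimmer probe of Ets1 gave 0.23.

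Runx1 encodes the DNA-binding partner of CBFβ and is needed for blood stem cells to emerge and for early myeloid differentiation. Its probes, annotated to different transcripts of the gene, gave 387 and 412 units on the NSD and HSD arrays for probe A_55_P2183438, and 53.0 and 58.6 for probe A_51_P206585. Both were slightly higher on the HSD array, with log2 fold changes of 0.21 and 0.26. Runx2 gave 18.6 and 15.2 units and Runx3 gave 53.2 and 47.7 units on the NSD and HSD arrays, log2 fold changes of -0.17 and -0.042. The direction for Runx2 turned to 0.016 with normexp background correction. A dimmer Runx2 probe, which was not well above background on the NSD array, was at least 1.72-fold higher on the HSD array, so the probes of Runx2 differed in direction.

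Cebpa encodes C/EBPα, the factor that commits progenitors to granulocytes and monocytes. Its probe A_52_P168567 gave 217 units under NSD and 187 under HSD, a log2 fold change of -0.097 that stayed between -0.14 and -0.087 under every alternative. With the scaling used here it was the only gene besides Maf with a value below 0. Cebpb, which serves emergency granulopoiesis and the suppressive programme of MDSCs, gave 32792 units under NSD and 35173 under HSD at probe A_55_P2165869, a log2 fold change of 0.22 that ran from 0.072 (cyclic loess) to 0.25 (normexp) under the alternatives. Cebpd, induced in the acute-phase response, gave 26508 and 25569.8 units at probe A_51_P444447, a log2 fold change of 0.062 that turned negative under quantile normalization (-0.037), cyclic loess (-0.076) and in the authors' deposited log2 values (-0.028). None of the 3 C/EBP genes came near a 1.5-fold difference.

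Other C/EBP genes were read beside them. Cebpe, a factor of late granulocyte maturation, gave 13555 units under NSD and 11991 under HSD, a log2 fold change of -0.062. Cebpg, whose product pairs with other C/EBP proteins and with ATF4, gave 637 and 207 units, a log2 fold change of -1.51. Among the 3 C/EBP relatives, Cebpg was therefore the one past 1.5-fold, and it was lower on the HSD array. Of 16 known C/EBP targets, 15 had a value, 3 were at least 1.5-fold higher, 1 was at least 1.5-fold lower, and their median log2 fold change was 0.14. With normexp, quantile normalization, cyclic loess and the deposited values 2 were higher, and the median was -0.017 under cyclic loess. Saa3, an acute-phase gene, gave 1154 units under NSD and 2467 under HSD. Ptgs2, which makes prostaglandins, gave 27.3 and 48.5 units, and Chil3, a chitinase-like protein, gave 34255 and 49710.3. The log2 fold change of Ptgs2 was 0.95, and 0.44 with normexp, and that of Chil3 was 0.65, and 0.50 under cyclic loess. Mpo, the myeloperoxidase of early granulocytes, was the lower one, with 3536 units under NSD and 1723 under HSD.

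Gfi1 encodes a zinc finger repressor that favours the neutrophil over the monocyte fate. Its probe A_55_P1977008 gave 655 units under NSD and 643 under HSD, a scaled log2 fold change of 0.087. That value was smaller than the scanner error and stayed between 0.023 and 0.10 under the alternatives. The paralog Gfi1b, known from red cells and platelets, gave 20.9 and 20.8 units on the NSD and HSD arrays. Neither GFI gene differed by as much as the median gene.

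Zeb2 encodes a repressor that keeps monocytes, dendritic cells and tissue macrophages on course. Its probes, both annotated to the same transcript, gave 1150.0 units under NSD and 1066 under HSD at A_52_P596008, and 208 and 194 units at A_52_P526372. The log2 fold changes were 0.0045 and 0.014, the smallest of the 11 probes. Their sign was not fixed by the data. It was negative under 4 of the 7 other corrections, scalings or sources for the brighter probe and under 3 for the dimmer one. Zeb1 gave 389 and 399 units on the NSD and HSD arrays, a log2 fold change of 0.15. None of the 5 relatives of Gfi1, Runx1 and Zeb2 was 1.5-fold apart by its brightest probe.

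**Figure D2:**
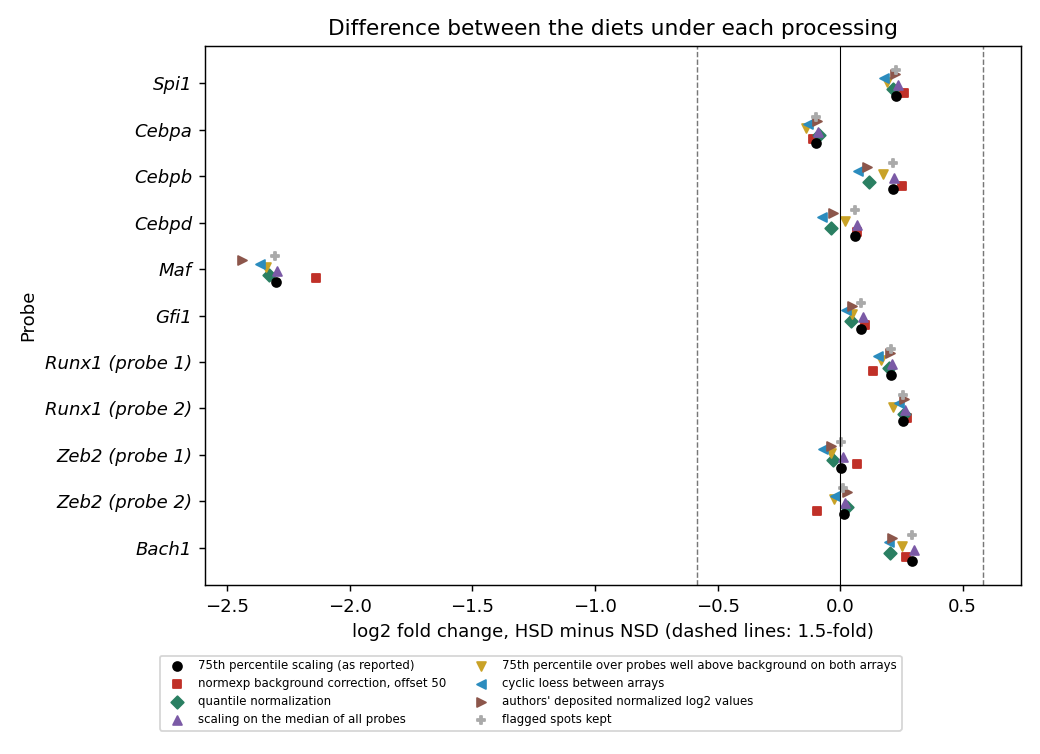
Log2 fold change (HSD minus NSD) of each of the 11 probes under the scaling used here and 7 other background corrections, scalings or sources of values, with dashed lines at a 1.5-fold difference. The points of Maf lie between -2.44 and -2.14, and those of the other 10 probes lie inside the dashed lines.

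Bach1 encodes a repressor that binds DNA with small MAF proteins and leaves it when haem is plentiful, which frees genes of haem breakdown and antioxidant defence. Its probe A_55_P2014337 gave 3205 units under NSD and 3633 under HSD, a log2 fold change of 0.30. It ran from 0.20 to 0.30 under the alternatives, and as processed here 74.2% of all genes had a value at or below it. Bach2, the relative known for restraining lymphocyte activation, gave 239 and 330 units on the NSD and HSD arrays at its brighter probe, a log2 fold change of 0.58. That fell just under 1.5-fold as processed here and just over it in the deposited values, where it was 0.61. A dimmer Bach2 probe, not well above background under HSD, gave only a bound, a log2 fold change of -0.049 or lower.

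By their brightest probes the known BACH1 targets were higher or little different on the HSD array. Of 13, 3 were at least 1.5-fold higher and 0 lower by that much, with a median log2 fold change of 0.35. For Ftl1, the brightest probe gave a log2 fold change of 0.12. Its other probe went past 1.5-fold lower, with 30442 units under NSD and 18530 under HSD, a log2 fold change of -0.60. Slc7a11, the cystine transporter, gave 523 units under NSD and 1754 under HSD, a log2 fold change of 1.86. Nqo1, a quinone reductase, gave 184 and 498 units, and Gclm, a subunit of the first enzyme of glutathione synthesis, gave 1665 and 3400.3. These genes are also known targets of NRF2, so the list does not belong to BACH1 alone. Hmox1, haem oxygenase and the best known BACH1 target, gave 3807 units under NSD and 4473 under HSD, a log2 fold change of 0.35. The gene for NRF2 itself, Nfe2l2, gave 5647 and 5390 units, a log2 fold change of 0.047.

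Maf encodes c-MAF, a basic leucine zipper factor of macrophages and of IL-10-producing cells. Its probe A_51_P405167 gave 1409 units under NSD and 264 under HSD, a log2 fold change of -2.30 with a scanner error of 0.20. It ranked 106 from the lowest of 16316 genes, and 0.65% of all genes fell by as much. Under the 7 other corrections, scalings or sources the value ran from -2.44 to -2.14. Both signals were far above the lowest signal that counted as well above background, which was 4.61 units under NSD and 4.39 under HSD.

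The small MAF genes, whose products lack an activation domain and pair with BACH1, were read beside Maf. Maff gave 37.4 units under NSD and 75.8 under HSD, a log2 fold change of 1.13 that was 0.53 with normexp. Mafk had a log2 fold change of -0.11 and Mafg one of -0.064 at its brightest probe, although another of its 3 probes gave 0.59. Of the 7 MAF, CNC and BACH relatives reported here, Maff and Nfe2 were at least 1.5-fold higher on the HSD array and 5 were neither. Nfe2, a partner of small MAF proteins in red cells and platelets, gave 8222 units under NSD and 11579 under HSD, a log2 fold change of 0.61. Its value was 0.49 under cyclic loess. It was not counted as higher there, under quantile normalization or with scaling on probes well above background on both arrays.

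**Figure D3:**
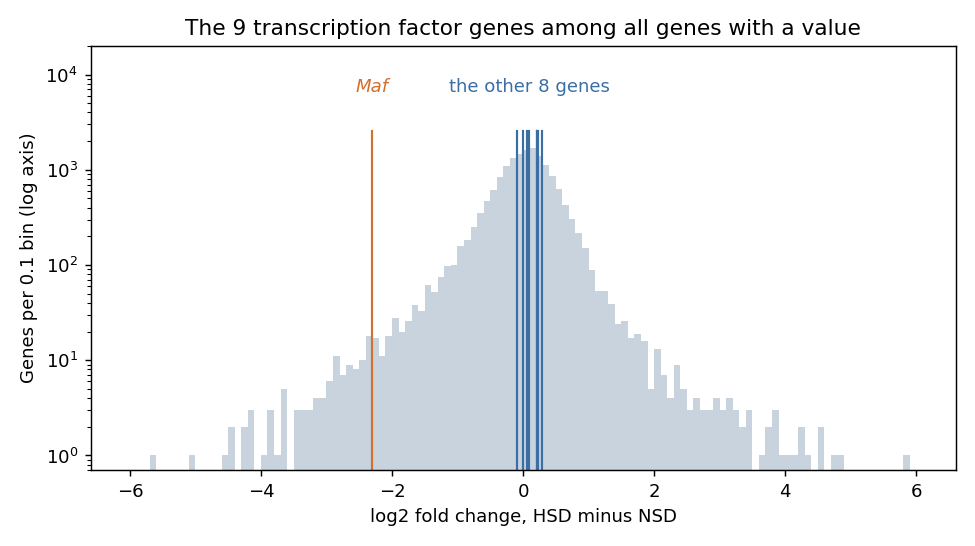
Number of genes (log axis) per bin of log2 fold change (HSD minus NSD) over the 16316 genes with a value, with a vertical line for each of the 9 transcription factor genes. The line of Maf at -2.30 stands in the left tail, and the other 8 lines lie between -0.097 and 0.30.

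Known targets of c-MAF were read next. Of 11 such genes 10 had a value, 6 of these were at least 1.5-fold lower on the HSD array, 1 was at least 1.5-fold higher, and the median log2 fold change was -0.99. Mrc1, the mannose receptor CD206, gave 134 units under NSD and 5.49 under HSD, a log2 fold change of -4.50. C1qc, a chain of complement C1q, gave 52.6 and 5.61 units, a log2 fold change of -3.11. Folr2, a folate receptor of tissue macrophages, gave 44.1 and 6.88 units, and Msr1, a scavenger receptor, gave 742 and 210 units, log2 fold changes of -2.57 and -1.70. All 4 of these signals lay lower on the HSD array, and 3 of them ended close to background there.

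The remaining calls of that list were named after their values were seen. Stab1, a scavenger receptor, gave 655 units under NSD and 396 under HSD, a log2 fold change of -0.61. C1qa was at least 2.56-fold lower, since it was not well above background on the HSD array. Il10, an anti-inflammatory cytokine that c-MAF is known to activate, went the other way with 14.1 and 20.7 units, a log2 fold change of 0.67 that was 0.21 with normexp. C1qb, which usually runs with its fellow C1q chains, gave 50.4 units under NSD and 58.4 under HSD, a log2 fold change of 0.33, so the C1q probes did not move together. With normexp background correction 4 of these genes were at least 1.5-fold lower, none was higher, and the median was -0.42. Under the other 6 scalings or sources the median lay between -1.08 and -0.96.

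Most macrophage markers were lower on the HSD array, as Maf was. Of 10 macrophage markers 8 had a value, 5 were at least 1.5-fold lower and 0 were higher, with a median log2 fold change of -0.98. The number lower was 4 with normexp and 6 under cyclic loess, quantile normalization and in the deposited values. C1qb was the only marker with a value above 0, at 0.33. Adgre1 gave 6723 and 4252 units at its brighter probe, a log2 fold change of -0.55, short of 1.5-fold. C1qa, C1qc and Mrc1, among the lower ones, ended close to background on the HSD array. The summed signal of the markers, before scaling, was 25531 under NSD and 16791 under HSD. The markers and the MAF targets are not separate lists, because 5 genes stand in both. Over all lists, 17 genes stand both among the known targets and among the cell type markers. Csf3r, Ltf, Camp, Ngp, S100a8 and S100a9, for example, are in the C/EBP target list and the neutrophil list. Mertk, a receptor for dead cells that is in the marker list only, gave 95.9 units under NSD and 15.4 under HSD, a log2 fold change of -2.52 that was -1.01 with normexp, where the median of the markers was -0.57. Csf1r, the receptor of monocytes and macrophages for M-CSF, gave 11343 and 8112 units, a log2 fold change of -0.37. The part of the macrophage share of the cells in the value of Maf was not tested.

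Known PU.1 targets did not move in 1 direction, with 2 of 12 at least 1.5-fold higher, 2 lower and a median log2 fold change of 0.16. Btk, a signalling kinase, gave 1088 units under NSD and 1774 under HSD. Cd14, a co-receptor for bacterial lipopolysaccharide, gave 2337 and 3804. Fcgr1, the high-affinity IgG receptor, gave 305 units under NSD and 21.9 under HSD, a log2 fold change of -3.68 that was -2.10 with normexp. Ctss, a lysosomal protease, gave 24546 and 9101 units, a log2 fold change of -1.32. The other 8 genes of the list with a value were less than 1.5-fold apart.

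**Figure D4:**
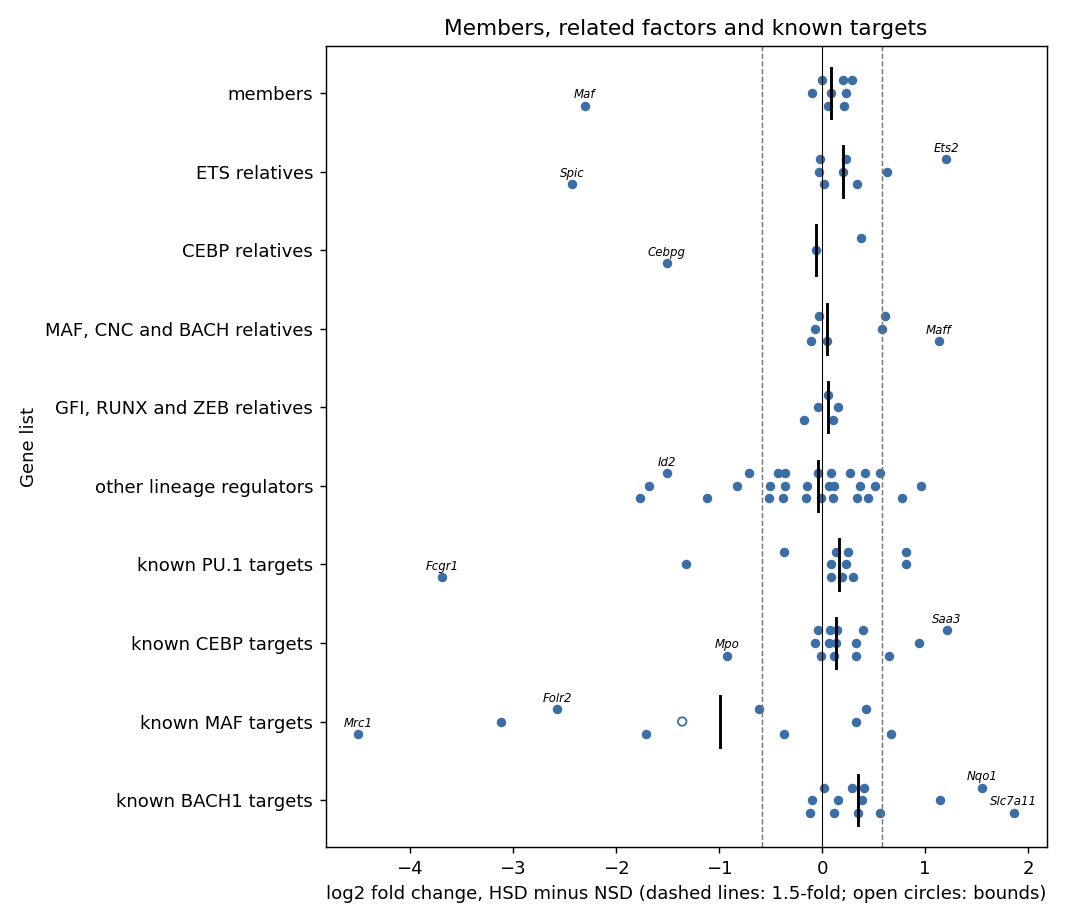
Log2 fold change (HSD minus NSD) of the 9 genes, of the related factors and of known targets, with 1 point per gene, a black bar at each list's median, dashed lines at a 1.5-fold difference and open circles for bounds. The bar of the MAF targets lies at -0.99, and those of the other lists lie between -0.062 and 0.35.

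Further lineage regulators outside these families also included genes with larger differences. Over 53 related or neighbouring factors, all well above background on both arrays, 6 were at least 1.5-fold higher, 8 were lower and 39 were neither, beside 20.2% of all genes past 1.5-fold in either direction. Their median log2 fold change was 0.015. Among the 29 regulators of other families 2 were higher and 6 lower. Nr1h3, the liver X receptor of macrophages, gave 525 units under NSD and 152 under HSD. Pparg, known from alveolar macrophages and fat cells, gave 86.5 and 23.5 units, and Id2, an inhibitor of E proteins used by dendritic and innate lymphoid cells, gave 10032.7 and 3269. The log2 fold changes of these 3 genes were -1.68, -1.76 and -1.50. Batf3, a factor of cross-presenting dendritic cells, gave 47.9 and 20.4 units, a log2 fold change of -1.12 that was -0.41 with normexp. The higher ones, named after their values were seen, were Id1, an inhibitor of E proteins like Id2, with 950 units under NSD and 1707 under HSD, and Irf4, a factor of lymphocytes and dendritic cells, with 83.1 and 132 units. Their log2 fold changes were 0.96 and 0.78, and that of Irf4 was 0.51 with normexp.

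Promoter sequence was read for the genes that the table of RefSeq windows held, 6 of the 9 factors with 11 windows (Spi1, Cebpd and Maf were not listed) and 7 of the 11 MAF targets with 9 windows, each from 250 bases before to 50 after a transcript start on GRCm38.p6. These cores were searched on both strands, TGCTGA for MAF, TTGCNNAA for C/EBP, CACCTG for ZEB, TGTGGT for RUNX, GAGGAAGT for PU.1 and AAATCA for GFI1. Of all 32851 windows, 19.5% held the MAF core, 10.8% the C/EBP core, 20.2% the ZEB core, 16.8% the RUNX core, 3.20% the PU.1 core and 14.0% the GFI1 core. Among the 11 windows of the 6 factors, 2 held the MAF core, 2 the C/EBP core, 2 the ZEB core and 1 the RUNX core. The PU.1 and GFI1 cores were in 0 of these 11, and counted by genes the numbers with a core were the same. A match is a run of letters and not a bound site. The MAF and C/EBP matches in the factors' windows are printed because c-MAF was the factor that differed and a MAF match overlaps a C/EBP match, with the core in capitals.
Bach1, MAF core read on the other strand, chr16:87698731-87698758, plus strand: aggcctggcgcTCAGCAatacaatccac
Gfi1, MAF core, chr5:107725931-107725958, minus strand: gaaggtaggttTGCTGAactgctgtgcc
Gfi1, C/EBP core, chr5:107725930-107725959, minus strand: cgaaggtaggtTTGCTGAActgctgtgcct
Zeb2, C/EBP core, chr2:45117645-45117674, minus strand: gggaaatgagaTTGCAAAAgaaatatagaa
The matches in Gfi1 overlap, since the MAF letters lie inside the C/EBP letters. Bach1 and Gfi1, the factors with a MAF core, had log2 fold changes of 0.30 and 0.087, against -2.30 for Maf itself.

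Among the 7 MAF targets with a window, C1qb, Folr2 and Stab1 had a MAF core, in 4 of 9 windows. The ZEB core was in 3 of these 9 windows, the RUNX and PU.1 cores in 2 each, the GFI1 core in 1 and the C/EBP core in 0. The shares of all windows with each core are given above, and the PU.1 core had the lowest, 3.20%. The MAF matches are printed to set them beside the values of the genes.
C1qb, chr4:136886315-136886342, minus strand: ccatccacaggTGCTGAgttggcgaaac
Folr2, upstream start, chr7:101857394-101857421, minus strand: gtgctctcaacTGCTGAgccatctctcc
Folr2, downstream start, chr7:101845334-101845361, minus strand: aagaaagcaagTGCTGAatggggatatt
Stab1, chr14:31168668-31168695, minus strand: cgcctgcaggcTGCTGAtacgcaggagg
The match lies 131 bases before the start in C1qb, 220 and 19 before the starts in Folr2, and 43 before it in Stab1. In C1qb it overlaps a ZEB core on the other strand. The genes with a match did not share a direction, with log2 fold changes of 0.33 for C1qb, -2.57 for Folr2 and -0.61 for Stab1. No match elsewhere says only that these letters are not in those windows.

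The label of the cells was set against marker lists. Cd68, Ly6c2 and Ly6g were not matched to a probe here, so the Ly-6C and Ly-6G proteins used to sort such cells could be read only through Ly6c1. Its probes gave 51811 and 48478 units under NSD and HSD, and 4649 and 3210 units, log2 fold changes of 0.018 and -0.42 that differ in direction. Of 10 monocyte markers 9 had a value, with a summed signal of 143866 under NSD and 151184 under HSD. Without Chil3 the other 8 summed to 109611 under NSD and 101474 under HSD. Sums here are of signals before scaling, and the HSD array was dimmer as a whole (75th percentile 233 against 252). Small differences between sums therefore give no direction. Of 11 neutrophil markers, 10 had a value and all 10 were well above background on both arrays, with a summed signal of 379622 under NSD and 370507 under HSD and a median log2 fold change of 0.099. That median was between -0.053 and -0.020 under quantile normalization, cyclic loess and in the deposited values, and none of the 10 was 1.5-fold apart. Mpo, a granule gene outside the list, was lower under HSD, as given above. Genes known from neutrophil granules were therefore measured in RNA labelled M-MDSC on both arrays. Ccr2, the chemokine receptor of inflammatory monocytes, gave 259 units under NSD and 139 under HSD, a log2 fold change of -0.78. The median log2 fold change was 0.062 for dendritic cell markers, -0.099 for T and NK cell markers, 0.36 for B cell markers, -0.34 for mast cell and basophil markers, 0.39 for carcinoma markers, -0.55 for fibroblast markers, 0.12 for endothelial markers and -0.13 for erythroid markers. With normexp it was 0.040 for T and NK cell markers, -0.16 for mast cell and basophil markers, 0.16 for carcinoma markers, -0.032 for fibroblast markers and -0.055 for erythroid markers, and it turned negative for dendritic cell markers under cyclic loess (-0.063), quantile normalization and in the deposited values. Kdr entered the endothelial list by its brighter probe, with a log2 fold change of 0.28. Its other probe fell from 124 units under NSD to 20.4 under HSD, a log2 fold change of -2.49, so the Kdr probes differed in direction. The part of any of these cell types in the values of the 9 factors was not tested.

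**Figure D5:**
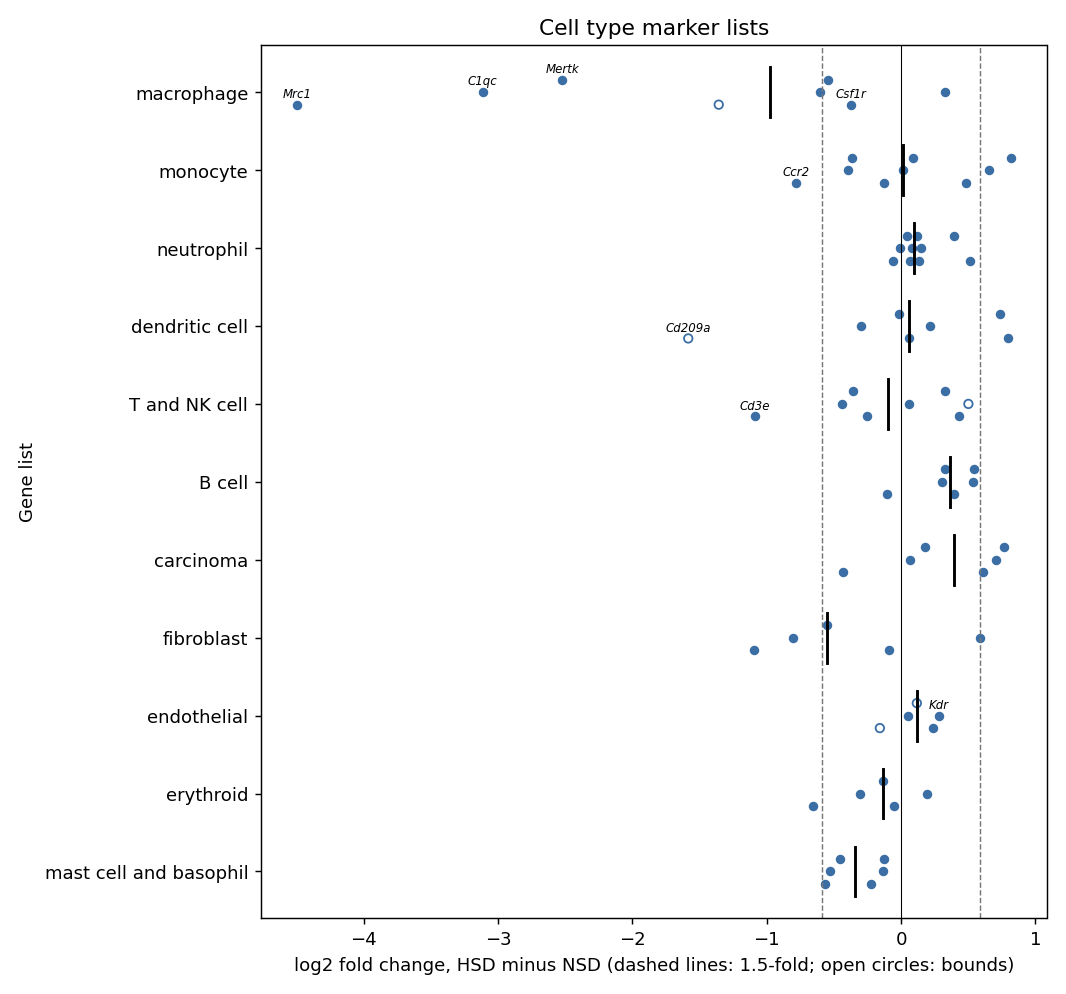
Log2 fold change (HSD minus NSD) of cell type markers by list, with 1 point per gene, a black bar at each list's median, dashed lines at a 1.5-fold difference and open circles for bounds. The macrophage list has its median at -0.98, and the neutrophil and monocyte lists have theirs at 0.099 and 0.018.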

How the data were processed

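RNA of 1 pool of M-MDSCs per diet was hybridised to 1 Agilent mouse array each, on 1 slide. The authors deposited scanner output, whose processed signal is an intensity already corrected for background by Agilent Feature Extraction 11.0.1.1, and log2 values normalized with the GeneSpring GX software by a method not named in the sources used here. The sorted deposited columns differed by at most 0.052. Control and flagged spots (162 on the NSD array, 179 on the HSD array) were left out, no spot was saturated, spots of a probe were averaged, log2 signals were scaled on the 75th percentile, and 71.9% and 72.4% of 39413 probes were well above background. Transcripts were matched to RefSeq names of GRCm38.p6, which named 27223 probes (69.1%). The array was annotated on an older build, so no probe coordinates are given. A gene's brightest probe well above background on at least 1 array gave its value. A probe not well above background on 1 array had only a bound, taken against whichever was higher there, its signal or the lowest one well above background. A fold change of 1.5 was counted, and precision is limited by having 1 array per diet.

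All probes of the 9 factors are described. Of the lists of related factors, known targets and cell type markers, written from general knowledge, up to 4 genes past 1.5-fold, direct paralogs and defining markers are named; other names were chosen after their values were seen. 1 gene of these lists is not reported here. The members and lists were chosen with earlier results of these data known. Alternatives were normexp background correction (offset 50, on the median signal, since the output holds no mean), quantile normalization, median scaling, cyclic loess, scaling on probes that passed the background call on each array, the deposited values, flagged spots kept, other filters on dim probes, the median over a gene's probes, probes in place of genes and a 2-fold threshold. Python 3.11.15, numpy 2.4.6, pandas 2.3.3, matplotlib 3.10.9, R 4.3.3 and limma 3.58.1 were used.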

Additional observations from a re-analysis of the deposited data

How the results depend on the processing

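The count of transcription factor genes past 1.5-fold was 1, with 0 higher and 1 lower, under all 12 alternatives, and their median log2 fold change ran from 0.023 (cyclic loess) to 0.10 (normexp). The count among the 53 related factors was 14 as processed here and ran from 10 (normexp) to 15. Over all genes, 3291 passed 1.5-fold as processed here, 1280 with normexp and 5115 with no filter on dim probes. Of these calls 48.9% were higher as processed here, 38.5% under cyclic loess and 56.8% with no filter. All of these counts come from the re-analysis and are not the authors' own. No paired analysis was possible because each diet had 1 array and the labels give no replicate numbers, and leaving out an array would have left a diet with none. Differences of genes close to background, such as Mrc1, C1qc and Folr2, were smaller under normexp (-1.56, -0.74 and -0.65 on the log2 scale, with Pparg at -0.76 and Ptgs2 at 0.44), which adds an offset to every signal.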
